A study of Homo sapiens with 3 samples.

Results

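The nuclear genes named for subunits of the 5 oxidative phosphorylation complexes were followed in 3 RNA-seq libraries of 293T cells. They were chosen by name alone: names starting with NDUFA, NDUFB, NDUFC, NDUFS, NDUFV, UQCR or ATP5, names with COX followed by a digit from 4 to 8, and SDHA, SDHB, SDHC and SDHD. The choice gave 88 of the 23284 gene names in each library. Left out were 8 names that the prefixes also matched: 2 pseudogenes (ATP5EP2, UQCRBP1), 2 hyphenated names of joined genes (ATP5J2-PTCD1, NDUFC2-KCTD14) and the assembly factors NDUFAF1, NDUFAF2, NDUFAF3 and NDUFAF4. By function, 37 of the 88 genes were assigned to complex I, 4 to complex II, 9 to complex III, 19 to complex IV and 16 to complex V. The other 3, COX4NB, ATP5S and ATP5SL, carry the name but encode no subunit.

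The cells were 293T, a human embryonic kidney line, and in every condition they carried dCas9-VP64, in which the VP64 activation domain is joined to a Cas9 with no cutting activity. They differed in the guide RNA: mock, made from the parental guide vector, sgL1ASP #1 or sgL1ASP #3. Both of the latter were designed against the 5′ UTR of LINE-1, which holds its antisense promoter (L1 ASP), and the question was which genes respond when that promoter is activated. Each condition had 1 library, so no difference has a replicate check and no test between conditions was possible. The guides and dCas9-VP64 were delivered on plasmids, and a bulk library cannot tell the share of cells that responded from the change in each cell.

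Values are FPKM, reads scaled to the length of the exons and to the size of the library, so levels of genes can be compared within a library. Small differences between libraries also depend on how the libraries are scaled, as given below. The depth was estimated from the steps between low values at 10400000 reads in mock, 10300000 with sgL1ASP #1 and 8700000 with sgL1ASP #3. FPKM summed to 619903, 661449 and 673483. VIM, KRT8 and KRT18, which 293T cells are known to express, were at 59.3 or more in every library. The neurofilament genes NEFL and NEFM were between 5.77 and 9.61, and the kidney lineage genes PAX2 and EYA1 at 0.658 or less. Of 8 genes of other tissues, PTPRC, MYH7 and PRM1 were listed at 0, ALB, CKM, GFAP and CDH5 were at 1.21 or less, and GAPDHS was between 8.63 and 10.4.

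Oxidative phosphorylation takes electrons from NADH through complex I (NADH dehydrogenase), or from succinate through complex II (succinate dehydrogenase), and passes them by ubiquinone to complex III and by cytochrome c to complex IV (cytochrome c oxidase). Complexes I, III and IV pump protons across the inner mitochondrial membrane, and complex V (ATP synthase) uses the gradient to make ATP. Mitochondrial DNA encodes a few core subunits of every complex except complex II, and the nucleus encodes all the others, so their messages must be supplied from many separate loci. The factors NRF1, GABP (an ETS protein) and YY1 are known for binding promoters of such genes.

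The promoters were read first, because this is where the members share sequence that the choice by name did not use. RefSeq promoters (GRCh38.p14, 250 bases before to 50 after the start) were found for 71 of the 88 genes. The NRF1 core (GCGCA, any 1 base, GCGC), searched like the others on both strands, was in 16 of the 71 (22.5%). It was in 9.67% of the 15843 RefSeq protein-coding genes with a promoter entry, measured here or not. Of these, 5774 had mean FPKM of at least 10, and 16.8% of the 5774 held it. The YY1 core AANATGGCG was in 17 of the 71 (23.9%), against 5.59% and 10.8% of the same backgrounds. The ETS core CCGGAAG was in 21 (29.6%), against 16.5% and 26.7%. Of the 3 cores, YY1 stood furthest above the promoters of other well expressed genes, and ETS lay close to them. The general GC box GGGCGG was less frequent than in those genes, in 42 members (59.2%) against 79.9%, and TATAAA was in 7 (9.86%) against 6.86%. Overlaps between motifs were not removed, and a match is a description of letters, not a bound site.

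The complexes did not carry the cores evenly among the 65 subunit genes with mean FPKM of at least 1 and a promoter entry. The YY1 core was in 11 of 32 complex I promoters (34.4%) and in 1 of 12 of complex IV, 1 of 11 of complex V, 3 of 7 of complex III and 1 of 3 of complex II. The NRF1 core was in 0 of the 12 complex IV promoters, against 4 of 7 of complex III, 2 of 3 of complex II, 3 of 11 of complex V and 6 of 32 of complex I. The ETS core was in 2 of 3 of complex II, 5 of 11 of complex V, 3 of 7 of complex III, 5 of 12 of complex IV and 5 of 32 of complex I. These are counts over few promoters.

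SDHA, the flavoprotein that oxidises succinate, is shown because its promoter held the NRF1 core 4 times, 166, 117, 68 and 19 bases before the start, each 49 bases from the next. The 24 bases around each match follow, 5′ to 3′ on the plus strand with the core in capitals.
SDHA at chr5:218147-218170: ccgctttGCGCAGGCGCggcgccc
SDHA at chr5:218196-218219: gcatggtGCGCAGGCGCgatgtcc
SDHA at chr5:218245-218268: gcgtggtGCGCAGGCGCggtatcc
SDHA at chr5:218294-218317: gtgtggtGCGCAGGCGCagtctgc

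Complex IV promoters are shown for the ETS core, which more of them held than held the NRF1 or YY1 core. COX4I1 encodes a subunit of complex IV, and COX4NB, now named EMC8 for a protein of the endoplasmic reticulum, is transcribed away from it on the other strand. The single match in each of these promoters was the same 7 bases, read on opposite strands. The capitals mark the core or its reverse complement.
COX4I1 at chr16:85799688-85799711, plus strand: ccttgctctCTTCCGGtcgcggga
COX4NB at chr16:85799689-85799712, minus strand: gtcccgcgaCCGGAAGagagcaag
COX5B at chr2:97646048-97646071, plus strand: agcttgttcCCGGAAGttttgctg
COX8A at chr11:63974593-63974616, plus strand: gctccagaaCTTCCGGccagcgca

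COX4I1 was at 584 FPKM in mock, 600 with sgL1ASP #1 and 598 with sgL1ASP #3. COX4NB was at 35.5, 36.2 and 33.3. Genes on the 2 sides of this shared stretch thus differed widely in level, and neither gene passed 1.2-fold in any comparison.

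Core subunits of complex I are shown for the YY1 core, in capitals. Its letters include ATGGCG, which can also be the first codons of a protein, and whether a match overlaps a start codon was not tested.
NDUFS3 at chr11:47579081-47579104, plus strand: atctgagtAACATGGCGgcggcgg
NDUFS7 at chr19:1383916-1383939, plus strand: ccgaggccAAGATGGCGgtgctgt
NDUFS8 at chr11:68030493-68030516, plus strand: cccaaaccAACATGGCGgccccct

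Most members were strongly expressed. Mean FPKM was at least 1 for 81 of the 88 genes and under 1 for 7, and 3 of these 7 were listed at 0 in every library. Among the 500 genes with the highest FPKM, which are 2.15% of all names, 38 were members in mock, 37 with sgL1ASP #1 and 37 with sgL1ASP #3. The members together held 2.63% of the summed FPKM in mock, 2.55% with sgL1ASP #1 and 2.50% with sgL1ASP #3. Their median among genes with mean FPKM of at least 1 was 145 in mock, against 12.2 for all genes past that minimum. The 76 genes of the mitochondrial ribosome had a median of 58.2 and the cytosolic ribosomal protein genes one of 1322.

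Among genes with mean FPKM of at least 1, the complexes kept nearly the same order of level in all 3 libraries. Complex IV had the highest median FPKM (317 in mock, 330 with sgL1ASP #1, 327 with sgL1ASP #3), and complex V followed (220, 223 and 218). Complex III (130, 130 and 137) and complex I (124, 127 and 140) lay side by side, and complex I passed complex III with sgL1ASP #3. Complex II had the lowest median (69.4, 70.8 and 69.9). Over all 19 genes of complex IV, the 6 under that minimum included, its median was 168, 175 and 181, below complex V over all its 16 genes (209.97, 218 and 214). The range of levels within each complex overlapped that of its neighbours, so the order describes medians and not the single genes. Of the summed FPKM of all subunits, complex I took 33.7% in mock, complex IV 28.1%, complex V 26.7%, complex III 9.89% and complex II 1.65%, and the shares with the guides were close, the largest difference being that of complex III, at 9.93% and 9.57%.

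**Figure D1:**
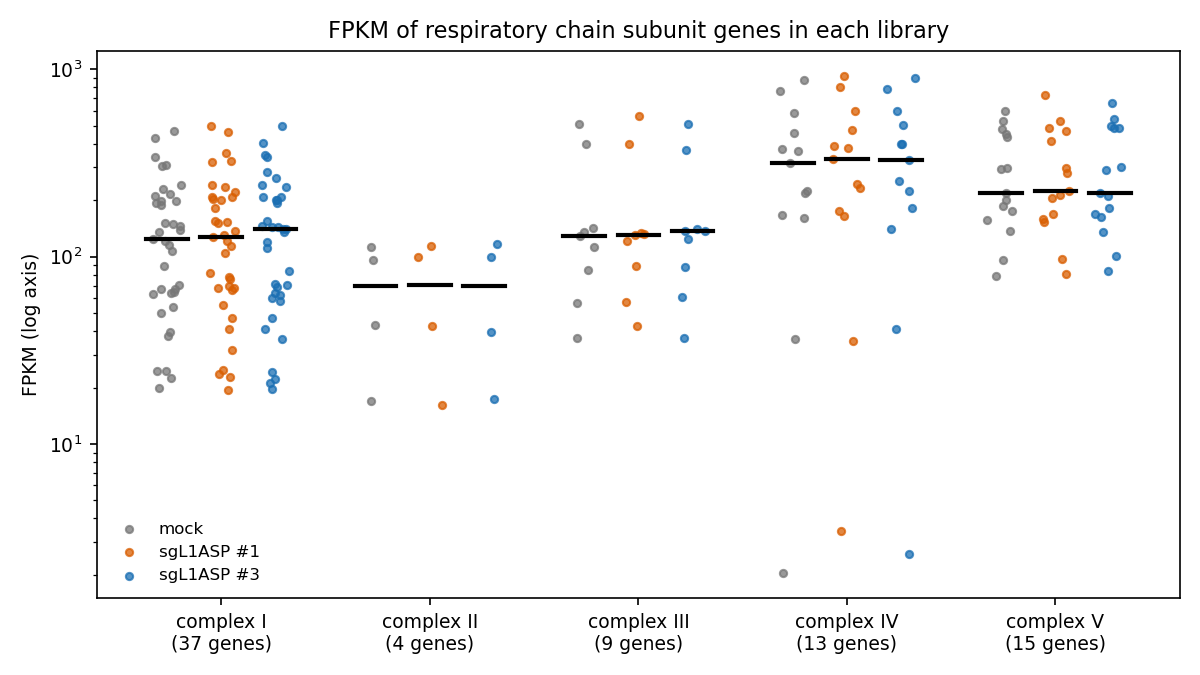
FPKM (log axis) of each subunit gene with mean FPKM of at least 1, by complex and library (grey mock, orange sgL1ASP #1, blue sgL1ASP #3), 1 point per gene, with black bars for the medians. Complex IV has the highest bars (317, 330 and 327) and complex II the lowest (69.4, 70.8 and 69.9), and within a complex the 3 libraries lie at nearly the same height.

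Genes with a short coding sequence tended to have higher FPKM. Spearman's rho between coding length and FPKM was -0.33 in mock over the 81 genes, given as a description, since the genes share a library and FPKM itself is divided by a length. The 37 genes with up to 400 coding bases had a median of 189 in mock, and the 44 longer ones 127.

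Complex I is the entry of electrons from NADH and the largest of the complexes. All 37 of its genes had mean FPKM of at least 1, and in mock they ranged 23.8-fold, from NDUFA10 at 19.8 to NDUFB10 at 471. Both are accessory subunits, which surround the catalytic core. NDUFB10, of the membrane arm, was at 471, 496 and 495 FPKM in mock, sgL1ASP #1 and sgL1ASP #3. NDUFA1, an X-linked accessory subunit, was at 427, 464 and 402, and NDUFA13, also known as GRIM-19, at 342, 357 and 342. At the low end NDUFV2 was at 22.4, 22.7 and 24.1, NDUFA5 at 24.4, 23.6 and 21.2, and NDUFA10 at 19.8, 19.5 and 19.6. NDUFB10 was the highest and NDUFA10 the lowest gene of the complex in all 3 libraries, while neighbours in the order could swap, as NDUFV2 and NDUFA5 did between mock and sgL1ASP #3.

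The core subunits of complex I include those that carry the flavin and the iron-sulphur clusters. The core subunits described here were not its most abundant messages. NDUFV1, which binds NADH, was at 135, 136 and 143 FPKM, well above NDUFV2, its partner in the flavoprotein part. NDUFS1, the largest iron-sulphur subunit, was also low, at 24.6, 24.9 and 22.1. The subunits around the ubiquinone site lay higher: NDUFS8 at 139, 131 and 140, NDUFS3 at 124, 127 and 136, and NDUFS7 at 107, 105 and 111.5. None of these 6 genes reached 1.2-fold in any comparison.

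Complex II is encoded wholly in the nucleus and also belongs to the tricarboxylic acid cycle. Its 4 genes split by position. The catalytic subunits SDHB (iron-sulphur; 113, 114 and 117 FPKM) and SDHA (flavoprotein; 95.5, 99.2 and 99.96) were above the membrane anchors SDHD (43.3, 42.5 and 39.8) and SDHC (17.0, 16.1 and 17.4) in every library. The ratio of SDHB to SDHC was 6.63 in mock, 7.10 with sgL1ASP #1 and 6.73 with sgL1ASP #3.

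In complex III, the bc1 complex, UQCRHL (513, 567 and 509 FPKM) and UQCRH (397, 398 and 371) were listed highest. UQCRH encodes the hinge protein at the site of cytochrome c1, and UQCRHL is a copy of it, at positions 16133664 to 16135843 of chromosome 1 (GRCh37), while UQCRH lies at 46769370 to 46782448. Their coding sequences are identical at 269 of 273 bases (98.5%), so the authors' counting may have split the reads of one gene between the 2 names, and neither level is certain. Their sum was 910 in mock, 965 with sgL1ASP #1 and 879.8 with sgL1ASP #3. The core proteins UQCRC1 (135, 130 and 137) and UQCRC2 (130, 132 and 137) were near equal to each other and well above the Rieske iron-sulphur protein UQCRFS1 (56.3, 57.5 and 60.6). The accessory subunits UQCR10 (142, 134 and 140) and UQCRQ (85.3, 88.6 and 87.6) lay on either side of the median. UQCRB, a ubiquinone-binding subunit, was lowest at 36.9, 42.7 and 36.7.

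The most abundant messages of all the subunits were COX7C and COX8A of complex IV. COX7C was at 880, 925 and 897 FPKM, COX8A at 770, 800 and 783, and COX4I1 at 584, 600 and 598. These are small subunits around the catalytic core, which mitochondrial DNA encodes. COX5A (217, 231 and 225) and COX5B (375, 380 and 397) lay in the middle of the complex. NDUFA4, formerly counted with complex I and now with complex IV, was far lower at 36.3, 35.5 and 41.2.

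In complex V, levels ranged 7.59-fold in mock among the 15 genes with mean FPKM of at least 1, from ATP5G3 at 79.3 to ATP5I at 601, and ATP5L2, the 16th, was at 1.13. The catalytic head contains equal numbers of alpha and beta chains, and the message of beta (ATP5B; 529, 527 and 541 FPKM) was above that of alpha (ATP5A1; 297, 297 and 289) in every library. The gamma chain of the rotor stalk, ATP5C1, was at 200.2, 212 and 218. ATP5I, the small membrane subunit e, was at 601, 730 and 659, and ATP5O, which joins the head to the peripheral stalk, at 479, 487 and 499. ATP5F1, subunit b of that stalk, was at 95.5, 96.6 and 101, and ATP5J, the coupling factor F6 of the same stalk, at 136, 153 and 136.

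Subunits encoded by more than 1 gene were compared by the share of each form. The forms known from most tissues made up nearly all of the level: COX4I1, COX6A1 and COX7B gave 100% of the FPKM of their pairs in each library, while COX4I2, COX6A2 and COX7B2 were listed at 0. COX6B1 gave 99.9% over COX6B2, a form of the testis, in every library. COX8A gave 99.96% in mock, 99.85% with sgL1ASP #1 and 99.95% with sgL1ASP #3 over COX8C. COX7A1, the form of heart and skeletal muscle, was at 0.172 in mock and listed at 0 with either guide. COX7A2 and COX7A2L, known for joining complexes III and IV, were both expressed, COX7A2 giving 57.1%, 58.4% and 58.3% of the group.

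The 3 genes for subunit c of the ATP synthase rotor ring encode the same mature protein. ATP5G2 took the largest part, 62.8% in mock, 66.2% with sgL1ASP #1 and 65.7% with sgL1ASP #3. ATP5G1 took 26.1%, 22.4% and 22.9%, and ATP5G3 11.1%, 11.4% and 11.4%. Their coding sequences share 67.4% to 70.4% of aligned bases. The share of ATP5G1 was thus lower with either guide than in mock, and the summed level was 716 in mock, 706 with sgL1ASP #1 and 736 with sgL1ASP #3.

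**Figure D2:**
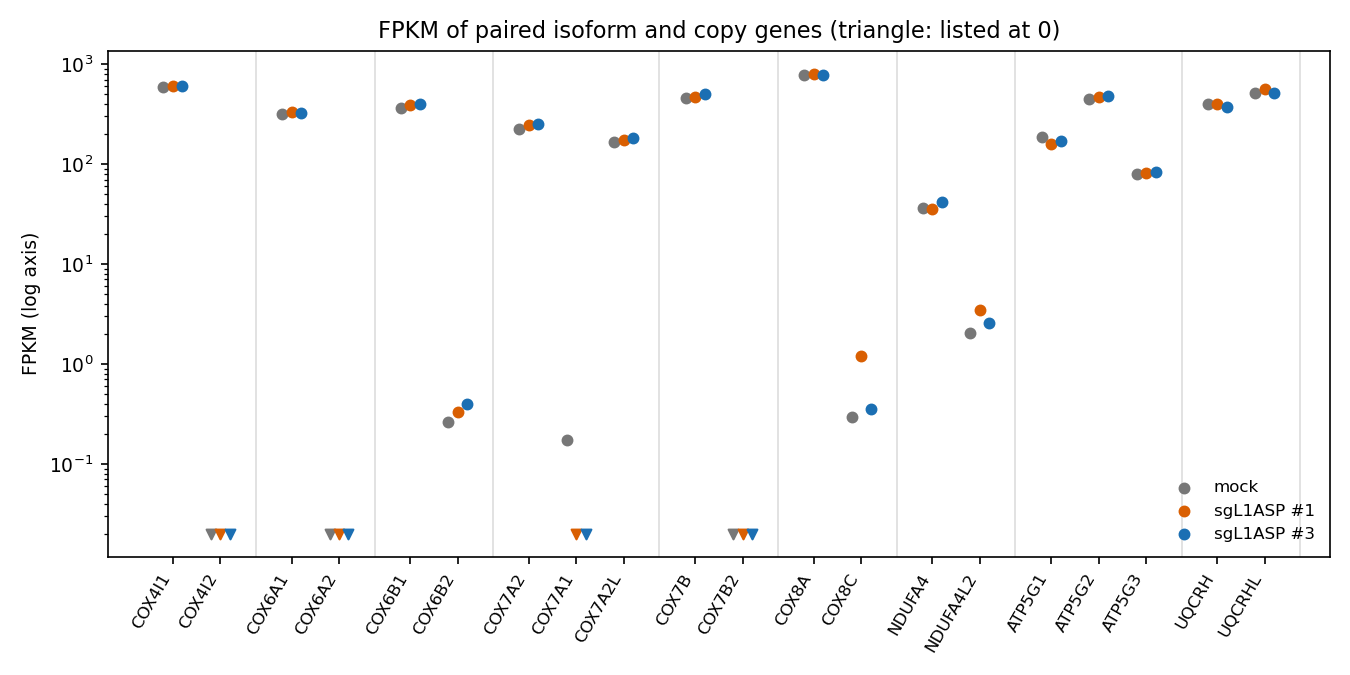
FPKM (log axis) of paired isoform and copy genes in mock (grey), sgL1ASP #1 (orange) and sgL1ASP #3 (blue), with triangles for genes listed at 0. The forms of most tissues lie between 35.5 (NDUFA4) and 800 (COX8A), and the tissue-specific partners COX4I2, COX6A2 and COX7B2 are at 0 in every library.

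Few members differed between the libraries. Of the 84 members with FPKM above 0 in both libraries, 3 differed by more than 1.5-fold between sgL1ASP #1 and mock, COX8C and NDUFA4L2 higher and ATP5L2 lower, against 11.9% of all genes. Between sgL1ASP #3 and mock it was 1 member, COX6B2, higher, against 12% of all genes. Between sgL1ASP #1 and sgL1ASP #3 it was 2, COX8C higher and ATP5L2 lower, against 11.8%. With mean FPKM of at least 1, the counts were 1 of 81 (NDUFA4L2), 0 and 0, against 3.23%, 3.48% and 3.34% of genes, and at 1.2-fold 2, 2 and 1 of 81, against 14.5%, 15.2% and 14.8%. Of the 80 members with mean FPKM of at least 10, 0 passed 1.5-fold in any of the 3 comparisons, against 0.671%, 0.685% and 0.671%, and at 1.2-fold ATP5I passed with sgL1ASP #1, NDUFA7 with sgL1ASP #3 and none between the guides, against 4.5%, 4.36% and 4.22%.

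The members past 1.5-fold were all of low level. NDUFA4L2, a paralog of NDUFA4 known for its induction by hypoxia, lies at 57628686 to 57634498 on the minus strand of chromosome 12 (GRCh37). Its FPKM was 2.04 in mock, 3.44 with sgL1ASP #1 and 2.57 with sgL1ASP #3, which makes 1.69-fold and 1.26-fold over mock. About 6, 9 and 6 reads over its coding sequence lie behind these values, and the counting error of the log2 change with sgL1ASP #1 (0.73) was 0.76.

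COX8C, a form of the testis, lies at 93813528 to 93814702 on chromosome 14. Its FPKM was 0.295 in mock, 1.19 with sgL1ASP #1 and 0.355 with sgL1ASP #3. The gene has 1 annotated transcript, and these values come to 1, 4 and 1 reads. The 4.04-fold ratio of those reads between sgL1ASP #1 and mock has an exact 95% counting interval from 0.400 to 199, so the libraries were not distinguishable at this depth.

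ATP5L2, a copy of the gene for ATP synthase subunit g, lies at 43035809 to 43036607 on chromosome 22. Its FPKM was 1.13, 0.653 and 1.16, which comes to 7, 4 and 6 reads, and the ratio of sgL1ASP #1 to mock was 0.577 (exact 95% counting interval 0.124 to 2.27). ATP5L itself was at 157, 168 and 163, and the 2 coding sequences share 91.3% of aligned bases, so some reads of ATP5L may be counted as ATP5L2. COX6B2 was at 0.262, 0.331 and 0.393, about 1 read in each library.

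Among members with mean FPKM of at least 1, the largest changes with sgL1ASP #1 after NDUFA4L2 were those of ATP5I and ATP5G1. ATP5I was at 601 FPKM in mock and 730 with sgL1ASP #1, 0.28 higher on the log2(FPKM + 0.1) scale used for all changes here, and at 659 with sgL1ASP #3 (log2 change 0.13). ATP5G1 was at 187 in mock, 158 with sgL1ASP #1 and 168 with sgL1ASP #3, log2 changes of -0.24 and -0.15. Both genes differed from mock in the same direction with either guide, by more with sgL1ASP #1.

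With sgL1ASP #3 the largest changes after NDUFA4L2 were in complex I. NDUFA7, an accessory subunit, was at 194 in mock, 208 with sgL1ASP #1 and 236 with sgL1ASP #3, a log2 change of 0.29 with sgL1ASP #3. NDUFB5, of the membrane arm, was at 49.95, 55.4 and 58.0, with log2 changes of 0.15 and 0.21. Between the guides, COX6C (160, 165 and 140) was 0.24 higher and NDUFA2 (122, 121 and 141) 0.23 lower with sgL1ASP #1 than with sgL1ASP #3. In both genes it was the sgL1ASP #1 value that lay near mock.

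The counting error was set beside each change. For the 81 genes its median standard error on the log2 scale was 0.076 for sgL1ASP #1 and 0.078 for sgL1ASP #3 against mock. The change was larger than 2 such errors for 6 genes with sgL1ASP #1: ATP5D, ATP5I, NDUFV3 and UQCRHL higher, and ATP5G1 and NDUFA9 lower. With sgL1ASP #3 it was larger for 9, all higher: ATP5C1, ATP5G2, ATP5I, COX7A2, COX7B, NDUFA2, NDUFA3, NDUFA7 and NDUFS3. Of all genes with a coding length and mean FPKM of at least 1, 6.85% were past this line with sgL1ASP #1, 5.7% with sgL1ASP #3 and 5.35% between the guides, and of the 81 members 7.41%, 11.1% and 13.6%. The members have more reads than most genes. Over all those genes the median error against mock was 0.145 (sgL1ASP #1) and 0.152 (sgL1ASP #3). Among those at mean FPKM of at least 10 it was 0.103 and 0.108, still larger than for the members. At that level 9.08%, 7.19% and 6.99% of genes were past the line, and 7.5%, 11.25% and 13.75% of the 80 members. The share of members was thus below that of genes for sgL1ASP #1, and above it for sgL1ASP #3 and between the guides. The errors come from coding length alone, so the line can be unequally strict for genes with more or fewer untranslated bases. The 2 shares are therefore not fully alike in what they measure. Only ATP5I was past the line against mock with both guides, and both comparisons use the same mock library. Between the guides 11 genes were past it, 6 higher and 5 lower with sgL1ASP #1. These errors cover the counting of reads and no variation between cultures.

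**Figure D3:**
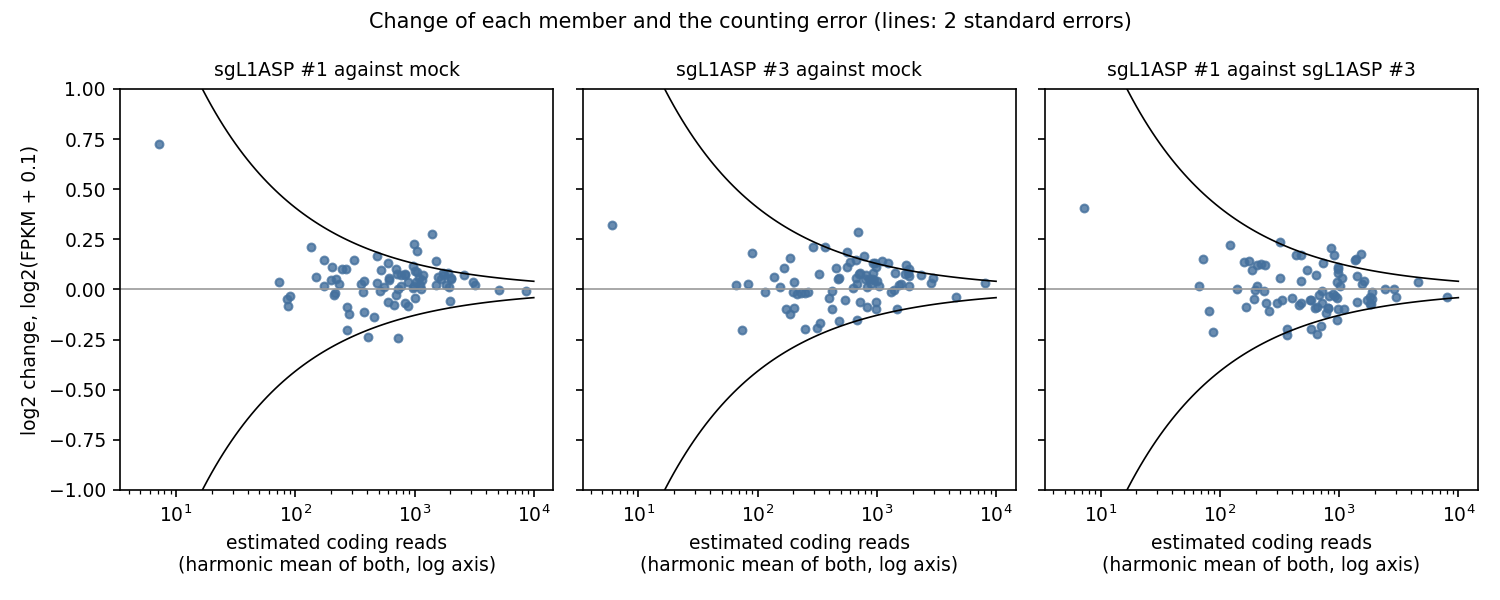
Log2 change of each of the 81 members with mean FPKM of at least 1 against its estimated reads (log axis) in the 3 comparisons, with lines at 2 standard errors of counting. Most points lie between the lines, 6, 9 and 11 lie outside, and NDUFA4L2, with the largest change, is the leftmost point and inside.

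The complexes moved little as groups. With sgL1ASP #1 against mock the median log2 change was 0.038 in complex I, -0.0056 in complex II, 0.031 in complex III, 0.059 in complex IV and 0.023 in complex V. With sgL1ASP #3 it was 0.016, 0.040, 0.017, 0.082 and 0.051. Over all 81 members it was 0.038 and 0.037 in the deposited values, with 58 (71.6%) and 54 (66.7%) of them higher than mock, but it was negative, -0.055 and -0.083, after each library was scaled to the same FPKM sum. That scaling moved the median of all genes by -0.092 and -0.12. In the deposited values the median of all genes was 0.00085 and 0.0015, below that of the members. A factor per library shifts nearly all these genes alike, so this order could not change with the scaling. Of all genes with mean FPKM of at least 10, 52.5% and 53.7% were higher than mock. Of the cytosolic ribosomal protein genes with mean FPKM of at least 1 it was 88.9% and 67.9%, with median log2 changes of 0.094 and 0.052. Of the mitochondrial ribosomal protein genes it was 51.3% and 53.9%.

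Complex IV was the most uniform in the sign of its changes against mock, but not in their size. Its log2 changes ran from -0.031 to 0.73 with sgL1ASP #1 and from -0.19 to 0.32 with sgL1ASP #3. In the deposited values 12 of its 13 expressed genes were higher than mock with sgL1ASP #1 and 12 of 13 with sgL1ASP #3, the exceptions being NDUFA4 with sgL1ASP #1 and COX6C with sgL1ASP #3. Its median turned to -0.035 and -0.038 after scaling to the same FPKM sum. For 11 of the 13 genes mock was the lowest library, against 16 of 37 in complex I, 2 of 4 in complex II, 4 of 9 in complex III and 8 of 15 in complex V. The same count was not made over all genes, so whether it is particular to complex IV was not tested. The shifts are small: COX7A2 was at 224 FPKM in mock, 245 with sgL1ASP #1 and 254 with sgL1ASP #3, and COX8A at 770, 800 and 783. The 2 comparisons share mock, so a low mock library gives the same sign in both.

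**Figure D4:**
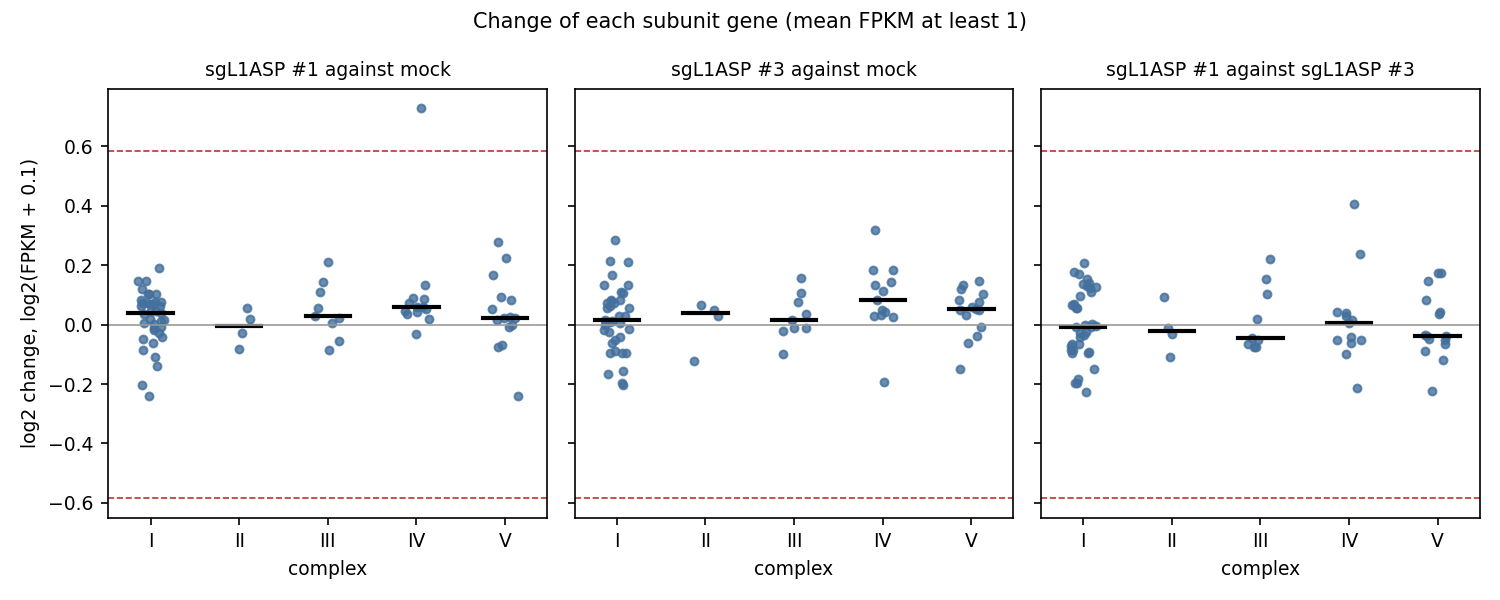
Log2 change of each subunit gene with mean FPKM of at least 1, by complex, in the 3 comparisons, with black bars for medians, a grey line at 0 and dashed lines at 1.5-fold. NDUFA4L2 with sgL1ASP #1 against mock (0.73) is the 1 point past a dashed line, and the medians lie between -0.046 and 0.082.

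Across the libraries the members varied about as much as other well expressed genes. The highest FPKM over the lowest of the 3 libraries had a median of 1.080 for the 80 members with mean FPKM of at least 10 and 1.084 for the 7137 such genes that were also above 0 in every library. It was under 1.2 for 78 of the 80 members (97.5%) and for 91.3% of the genes.

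The rest of the pathway was read from lists of named genes. Of 47 assembly factors, 1 passed 1.5-fold with sgL1ASP #1 and 1 with sgL1ASP #3, in both cases C6orf57, against 3.23% and 3.48% of all genes with mean FPKM of at least 1. C6orf57, now SDHAF4, an assembly factor of complex II, was at 6.61 FPKM in mock, 10.6 with sgL1ASP #1 and 14.1 with sgL1ASP #3, which is 1.61-fold and 2.13-fold. About 22, 36 and 40 reads over its coding sequence lie behind these values, and its log2 changes of 0.68 and 1.08 had counting errors of 0.39 and 0.38. The complex II subunit it serves, SDHA, was at 95.5, 99.2 and 99.96. The median log2 change of the 47 was -0.030 and -0.013.

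A list of 19 genes of the chain or beside it, outside the naming rule, held mostly genes that encode no subunit. Among these were COQ and PDSS genes of ubiquinone synthesis, ETFA, ETFB, ETFDH, DHODH, GPD2 and the ATP synthase inhibitor ATPIF1. Of the 19, 0 passed 1.5-fold in any comparison. Of all genes with mean FPKM of at least 1, 3.23%, 3.48% and 3.34% did. The median log2 change of the 19 was -0.0012 with sgL1ASP #1 and -0.0070 with sgL1ASP #3. CYC1, cytochrome c1 of complex III, was at 200.4, 217 and 223 FPKM, above UQCRC1 and UQCRFS1, and CYCS, cytochrome c, was at 24.9, 22.9 and 23.4. Of 17 tricarboxylic acid cycle enzymes 0 passed 1.2-fold against mock, where 4.5% and 4.36% of genes with mean FPKM of at least 10 did. In lists this short, a count of 0 lies near such shares.

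Among the 16 regulators of mitochondrial biogenesis with mean FPKM of at least 1, 1 passed 1.5-fold with sgL1ASP #1 and 0 with sgL1ASP #3, against the same 3.23% and 3.48% of all genes. It was GABPB2, a subunit of GABP, at 4.31 FPKM in mock, 2.82 with sgL1ASP #1 and 3.35 with sgL1ASP #3. About 60, 39 and 39 reads lie behind these values, and its log2 changes of -0.60 and -0.35 each had a counting error of 0.30. At 1.2-fold 2 of the 16 were lower with sgL1ASP #1 (NRF1 and GABPB2) and 2 with sgL1ASP #3 (GABPB2 and TFB2M). None was higher, and 14.5% and 15.2% of all genes passed 1.2-fold in either direction. NRF1, GABPA and YY1, whose motifs were counted above, stayed within 1.5-fold of mock. NRF1 was at 6.25, 5.13 and 5.77, GABPA at 4.71, 4.37 and 5.23, and YY1 at 54.6, 55.8 and 50.9. TFAM, which packages mitochondrial DNA and takes part in its transcription, was at 51.2, 53.4 and 51.8. PPARGC1A, the coactivator PGC-1 alpha, was under the minimum at 0.779, 0.552 and 0.675.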

How the data were processed

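The 3 mRNA libraries, 1 for each guide condition, were assigned from the labels. The authors made TruSeq stranded mRNA libraries, read 75 bases single-end, mapped to hg19 with TopHat2 2.0.13, Bowtie2 2.2.3 and SAMtools 0.1.19, and deposited FPKM per gene from Cuffdiff (Cufflinks 2.2.1). The gene annotation is not given in the sources used here.

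The deposited FPKM were used unscaled. Ratios had no pseudocount and needed FPKM above 0 in both libraries. Log2 changes used log2(FPKM + 0.1), which understates changes of low genes. Medians and counts of higher genes used mean FPKM of at least 1. With no replicates no p-value was computed. Scaling, pseudocounts, thresholds, filters and the assignment of NDUFA4 and NDUFA4L2, counted here with complex IV, were varied.

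The genes named are, per complex, the 3 highest and 3 lowest by mean FPKM, the core subunits, the 3 largest changes per comparison, all members past 1.5-fold or with mean FPKM under 1, and the isoform groups. Others are named after their values were seen, and 1 gene the rule names is not reported here. The members and lists were chosen with earlier results of these data known.

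Depth was estimated from genes with 1 transcript of at least 1000 bases in GENCODE 44 on GRCh37, of which 955, 1001 and 954 were used and 27, 55 and 34 lie at the peak. Reads behind a member were approximated from its coding length, or from its transcript less a fragment for COX8C and ATP5L2, which have 1 transcript. The counts past 2 counting errors used coding length for every gene. Coding length leaves out untranslated exon bases, so such reads can be too few and the errors too large. UQCRFS1 in mock came to 481 reads by coding length and 1690 by its transcript. Intervals cover counting error only. The rule for ratios and the depth estimate were tested on simulated data. Computation used SciPy 1.17.1, pandas 2.3.3 and NumPy 2.4.6 under Python 3.11.15, and matplotlib 3.10.9 drew the figures.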

Additional observations from a re-analysis of the deposited data

How the results depend on the processing

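The number of members past 1.5-fold rests on genes of low level. With sgL1ASP #1 against mock it went from 3 to 5 at 1.2-fold, and to 1 at 2-fold, with mean FPKM of at least 1, with FPKM of at least 1 in every library, or with a pseudocount of 1. With sgL1ASP #3 against mock it went from 1 to 4 at 1.2-fold and to 0 under the other 4 of these settings and after scaling to a sum of 1000000. Between the guides it went from 2 to 1 at 2-fold or with a pseudocount of 1, and to 0 under either filter.

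Scaling each library to a sum of 1000000 turned the medians of sgL1ASP #3 against mock to -0.10 (complex I), -0.080 (II), -0.10 (III), -0.038 (IV), -0.068 (V) and -0.083 (all members), and those of sgL1ASP #1 to between -0.035 (IV) and -0.099 (II). It raised the median FPKM in mock and sgL1ASP #1 to 199.5 and 192 (I), 111.96 and 107 (II), 209 and 196 (III), 512 and 499 (IV), and 355 and 337 (V), and with sgL1ASP #3 by a little under 1.5-fold, to 208, 104, 203, 485 and 323. With no filter on low values the median of complex IV was 168, 175 and 181 in mock, sgL1ASP #1 and sgL1ASP #3, under that of complex V. Scaling to the median ratio and pseudocounts of 0.01 and 1 on the log scale moved none of the median log2 changes by more than 0.1. The median ratio could move little, since its factors were 0.9998 in mock, 0.9996 with sgL1ASP #1 and 1.002 with sgL1ASP #3. No paired analysis was possible because there was only 1 library for any condition.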
